A study of Caenorhabditis elegans and Caenorhabditis briggsae with 12 samples.

Results

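The J-domain co-chaperones and the subunits of the chaperonin TRiC are 2 gene families of the protein folding machinery, and their mRNA was followed here through heat shock in *Caenorhabditis elegans*. Members were chosen by name alone, as every gene called *dnj-* with a number or *cct-1* to *cct-8*. This gave 37 of 20213 genes, 29 J-domain genes and 8 TRiC subunits. J-domain genes with other names were not analysed here. The N2 strain, the wild type used in laboratories, was sampled as whole mid-L2 larvae after 30 min in a water bath at 34 °C (HS, 3 biological replicates) or at the growth temperature of 20 °C (NHS, 3 biological replicates). The same design was applied to L2 larvae of AF16, a wild-type strain of *C. briggsae*, with 3 HS and 3 NHS libraries.

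A J-domain protein, or HSP40, binds an unfolded protein and hands it to HSP70, and its J domain makes HSP70 split ATP and close on that client. Different J-domain proteins bring HSP70 to different places, such as the cytosol, the endoplasmic reticulum, mitochondria, ribosomes and vesicles. TRiC, also called CCT, works differently. Its 8 related subunits, one from each gene, form stacked rings with a chamber in which newly made proteins fold, among them actin and tubulin, and prefoldin delivers clients to it. In many animals the transcription factor HSF-1 raises some HSP70 and HSP40 genes during heat shock.

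The deposited normalized counts summed to 39400000 to 43000000 in the HS libraries and 32200000 to 32500000 in the NHS libraries, from an estimated 28600000 to 43900000 reads per library. The heat-inducible gene *hsp-70* served as a check of the labels, at 97171, 129463 and 65511 normalized counts in HS replicates 1, 2 and 3, against 1248, 1038 and 499 in NHS replicates 1, 2 and 3. Markers of body wall muscle (3 of 3) and pharynx (3 of 3) rose, and those of neurons (4 of 4) fell, by an adjusted p under 0.05 with limma. Of 3 intestinal markers 2 rose and 1 fell, 1 of 3 germline markers fell, and 0 of 3 hypodermal markers passed. Of all genes, 24.8% rose and 20.2% fell. With libraries scaled to equal totals, 4 of 4 neuronal, 3 of 3 germline, 1 of 3 pharynx and 1 of 3 intestinal markers fell. Of the others, 1 intestinal marker and 0 muscle and 0 pharynx markers rose, where 13.8% of all genes rose and 47.9% fell. The summed neuronal markers ranged from 3963 to 4294 normalized counts in HS libraries and from 5678 to 6131 in NHS libraries, and those of muscle from 561345 to 615972 in HS libraries and from 448711 to 497685 in NHS libraries. None of these markers was at 0. The 3 adult yolk genes, low in larvae, summed to 56.7 to 109 normalized counts in HS libraries and 14.6 to 19.1 in NHS libraries, and rose. With equal totals 2 of these 3 rose. The 3 sperm markers were near or at 0, with sums of 0 to 11.5 in HS libraries and 0 to 0.983 in NHS libraries. Only 1 of them was tested, and it did not pass. The part of these markers in the other results was not tested. In whole larvae, fewer cells of a type and less RNA per cell cannot be told apart. Scale also matters, since dividing by equal library totals in place of the authors' size factors moved the median change of all genes from 0.04 to -0.32 on the log2 scale. Directions are given on the authors' scale, and the values with equal totals stand beside the named members whose sign or call they change.

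Side by side, the 2 families gave different pictures, a difference that was not itself tested. One J-domain gene, the cytosolic HSP40 *dnj-13*, rose 3.12-fold, and another, *dnj-11*, fell to 0.552 of its NHS level. At an adjusted p under 0.05, 5 of 29 rose and 5 fell, *dnj-13* and *dnj-11* among them, and 19 did not pass. Each way this was 17.2%, against 24.8% of all genes that rose and 20.2% that fell. The rest of those that passed lay between -0.49 and 0.28 on the log2 scale. The TRiC subunits moved as a narrow band, all of them far below 2-fold. By the test 4 of 8 were slightly higher in HS and none lower, where 24.8% of all genes rose and 20.2% fell. Of these 4 calls, 3 were lost without some single library. With equal totals 7 of 8 TRiC subunits fell slightly, where 47.9% of all genes fell, and *cct-5* stayed above 0 without passing. TMM scaling gave the counts of the authors' scale, 4 TRiC subunits up and 0 down, and 5 J-domain genes up and 5 down.

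Fold changes were fitted as log2(normalized count + 1) with limma, HS over NHS, and p-values were adjusted over all 17551 genes tested, which included all 37 members. Of the J-domain genes, 1 of 29 was called up and 0 were called down at an adjusted p under 0.01 and more than 2-fold, where 10.2% of all genes were called up and 2.77% down. At an adjusted p under 0.05 and any fold, 5 J-domain genes rose and 5 fell, 17.2% each way, against 24.8% of all genes that rose and 20.2% that fell. The other 19 did not pass. Without adjustment, 10 of the 29 had a p under 0.05. Of the TRiC subunits, 0 of 8 were called at 2-fold in either direction, and 4 of 8 rose while 0 fell at any fold, with 4 of 8 also under an unadjusted p of 0.05. Across both families 37.8% of members passed at any fold, against 45.1% of all genes.

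The median log2 fold change was 0.03 for J-domain genes, with a range of -0.87 to 1.62, and 0.14 for TRiC subunits, with a range of 0.07 to 0.40. The median of all genes tested was 0.04. The TRiC median thus lay 0.10 above it, and the same distance above it with equal totals (0.10). That distance depended on the genes kept, at 0.06 with no filter and 0.15 with a mean of at least 10. With equal totals the TRiC median itself was -0.22 and that of J-domain genes -0.32. With equal totals 1 J-domain gene rose and 19 fell, and 0 TRiC subunits rose and 7 fell at an adjusted p under 0.05 with limma, where 13.8% of all genes rose and 47.9% fell. At 2-fold 1 J-domain gene was then called down, *dnj-11*, where 7.6% of all genes were.

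**Figure D1:**
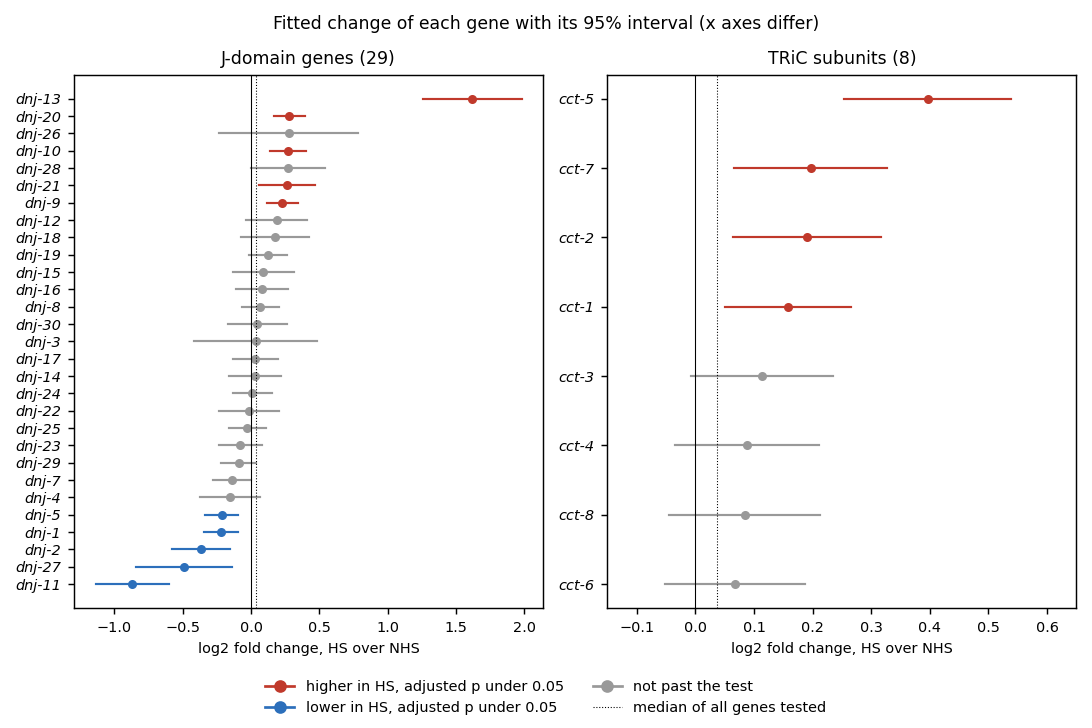
Fitted log2 fold change, HS over NHS, of the 29 J-domain genes (left) and the 8 TRiC subunits (right), with 95% intervals from 3 HS and 3 NHS libraries. *dnj-13* at 1.62 and *dnj-11* at -0.87 stand apart from the other J-domain genes, and the TRiC subunits lie between 0.07 and 0.40 on their own, narrower axis.

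The cytosolic HSP40s come first by role. *dnj-13*, whose human counterparts include DNAJB1, a partner of inducible HSP70, lies on chromosome II (WBcel235, 11545701 to 11547360, plus strand, 3 exons). It had 24603, 31701 and 20705 normalized counts in the HS libraries, in order of replicate number here and below, against 8083, 8505 and 8086 in the NHS libraries. Every HS library was above every NHS library, and the HS libraries varied more among themselves than the NHS libraries did. The mean was 25670 ± 5575 in HS and 8224 ± 243 in NHS (SD, n = 3 each), a log2 fold change of 1.62 (SE 0.15, limma adjusted p = 4.1e-04), and 1.26 with equal totals. Leaving out each library in turn kept it between 1.46 and 1.76, with a highest adjusted p of 0.0038.

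The other cytosolic HSP40s in this grouping are *dnj-12* and *dnj-19*, related to human DNAJA1 and DNAJA2. Their proteins carry a zinc-finger region that *dnj-13* type proteins lack. *dnj-12* had 5987, 7290 and 5668 normalized counts in HS libraries, against 5473, 5958 and 5133 in NHS libraries. Its groups overlapped, and its log2 fold change of 0.19 (SE 0.10, limma adjusted p = 0.15) missed the threshold. HS was above NHS within each replicate number, and with that number as a block the same difference passed (SE 0.05, limma adjusted p = 0.015). Without HS replicate 3 it was 0.26 and passed (limma adjusted p = 0.048).

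*dnj-19* had 8594, 9807 and 8520 normalized counts in HS libraries, against 8121, 8257 and 8225 in NHS libraries. The groups did not overlap, but the log2 fold change of 0.13 (SE 0.06, limma adjusted p = 0.12) did not pass. With equal totals both signs turned, to -0.17 for *dnj-12*, which did not pass, and to -0.23 for *dnj-19*, which did (limma adjusted p = 0.0056).

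Both J-domain genes grouped here under mitochondria rose slightly on the authors' scale. No role was stated for 17 of the 29, so these groups may not hold every gene of a place. *dnj-10*, the counterpart of human DNAJA3 (Tid1), a co-chaperone of mitochondrial HSP70, had 2360, 2484 and 2591 normalized counts in HS libraries, against 1992, 2083 and 2079 in NHS libraries. The groups were separate and the log2 fold change was 0.27 (SE 0.06, limma adjusted p = 0.0045). *dnj-21*, which matches a yeast subunit of the motor that pulls proteins into mitochondria, had 461, 407 and 489 normalized counts in HS libraries, against 372, 382 and 372 in NHS libraries. Its log2 fold change was 0.26 (SE 0.09, limma adjusted p = 0.040), and the call was lost without any one of 5 of the 6 libraries (all but HS replicate 2), with an adjusted p of up to 0.11. With equal totals both turned, to -0.08 and -0.09, and neither passed.

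The 4 genes grouped here under the endoplasmic reticulum went separate ways. *dnj-20*, the counterpart of human DNAJB11 (ERdj3), which serves the HSP70 of that compartment, had 4927, 4811 and 4873 normalized counts in HS libraries, against 3913, 4107 and 4005 in NHS libraries. The libraries of each group lay within a few percent of one another and the groups were separate. The log2 fold change was 0.28 (SE 0.05, limma adjusted p = 0.0016), the next smallest adjusted p among the J-domain genes that rose after *dnj-13*, and turned to -0.07 with equal totals, where it did not pass.

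*dnj-27*, the counterpart of mammalian ERdj5, whose thioredoxin domains reduce disulfide bonds, had 1289, 1616 and 1839 normalized counts in HS libraries, against 2266, 1900 and 2472 in NHS libraries. It was lower in every HS library, with wide spread in both groups. The log2 fold change was -0.49 (SE 0.15, limma adjusted p = 0.034), and the call was lost without HS replicate 2, NHS replicate 1 or NHS replicate 3, with an adjusted p of up to 0.10.

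*dnj-7*, the counterpart of mammalian P58IPK, had a log2 fold change of -0.14 (SE 0.06, limma adjusted p = 0.0998), which missed the threshold and passed it with the replicate block (adjusted p = 0.048) and, at -0.19, without HS replicate 3 (adjusted p = 0.031). *dnj-29*, the counterpart of SEC63 of the translocation channel in yeast and mammals, had a log2 fold change of -0.09 (limma adjusted p = 0.22). With equal totals both fell, with log2 fold changes of -0.49 for *dnj-7* and -0.45 for *dnj-29* (limma adjusted p = 3.8e-04 each).

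The J-domain gene that fell most was *dnj-11* (chromosome IV, 6585871 to 6588186, plus strand). Its counterpart in mammals, ZRF1 or MIDA1, and in yeast, zuotin, sits on ribosomes beside the tunnel exit, and the mammalian protein also acts at chromatin. It had 2204, 1986 and 2779 normalized counts in HS libraries, against 4009, 4204 and 4423 in NHS libraries. All HS libraries lay below all NHS libraries. The mean was 2323 ± 410 in HS and 4212 ± 207 in NHS (SD, n = 3 each), 0.552 of the NHS level, with a log2 fold change of -0.87 (SE 0.12, limma adjusted p = 7.3e-04). It passed without any one library, where its log2 fold change lay between -1.01 and -0.77, and with equal totals it was -1.23.

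*dnj-14*, the cysteine string protein of synaptic vesicles, had 677, 671 and 595 normalized counts in HS libraries, against 685, 623 and 598 in NHS libraries, and its groups overlapped. Its log2 fold change was 0.03 (SE 0.08, limma adjusted p = 0.82, 95% interval -0.16 to 0.22), where the 4 neuronal markers had a median of -0.57. With equal totals *dnj-14* turned to -0.33 and passed as a fall (limma adjusted p = 0.0065), and the neuronal median was -0.93. *dnj-25*, the auxilin that uncoats clathrin vesicles with HSP70, had a log2 fold change of -0.03 (limma adjusted p = 0.75), and fell with equal totals, at -0.38 (limma adjusted p = 0.0012).

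Of the 17 J-domain genes with no role stated here, 1 rose and 3 fell. *dnj-9* had 3263, 3265 and 3302 normalized counts in HS libraries, against 2823, 2725 and 2834 in NHS libraries, with a log2 fold change of 0.23 (SE 0.05, limma adjusted p = 0.0051). The groups were separate, and the sign turned to -0.13 with equal totals, where it did not pass. *dnj-2* had 751, 883 and 918 normalized counts in HS libraries, against 1023, 1050 and 1214 in NHS libraries, with a log2 fold change of -0.37 (SE 0.10, limma adjusted p = 0.012). The fall held for every HS library against every NHS library.

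*dnj-1* had 1400, 1451 and 1435 normalized counts in HS libraries, against 1623, 1711 and 1661 in NHS libraries, with a log2 fold change of -0.22 (SE 0.06, limma adjusted p = 0.011). *dnj-5* had 2147, 2152 and 2199 normalized counts in HS libraries, against 2597, 2512 and 2431 in NHS libraries, with a log2 fold change of -0.21 (SE 0.05, limma adjusted p = 0.010). Both differences were small and larger than the spread within either group. *dnj-2*, *dnj-1* and *dnj-5* fell with equal totals as well, with log2 fold changes of -0.72, -0.58 and -0.57. *dnj-1* (11299036 to 11304788, plus strand) and *dnj-2* (11312476 to 11313980, minus strand) lie close together on chromosome IV.

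**Figure D2:**
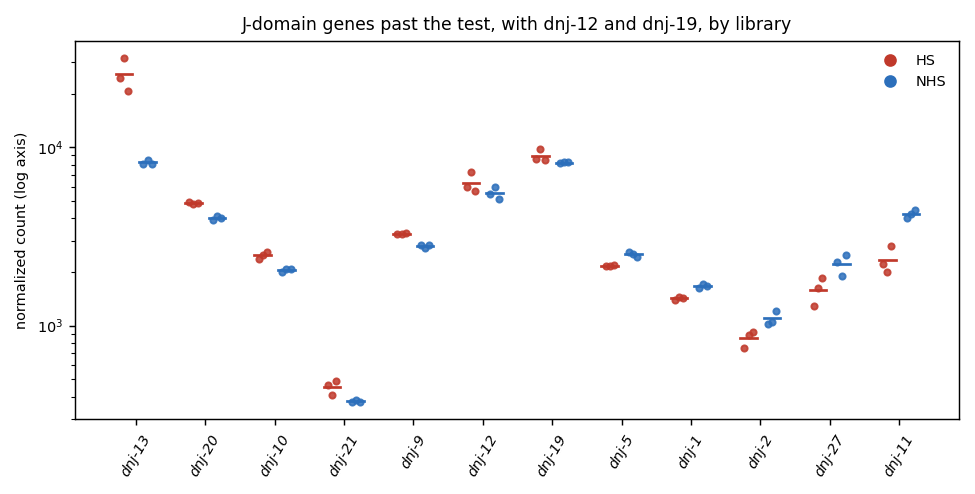
Normalized counts (log axis) of the 10 J-domain genes that passed the test and of *dnj-12* and *dnj-19*, with HS libraries to the left of NHS libraries and bars at the means. *dnj-13* separates widely, from 20705 to 31701 in HS against 8083 to 8505 in NHS, and *dnj-11* lies from 1986 to 2779 in HS against 4009 to 4423 in NHS.

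The 19 J-domain genes that did not pass had log2 fold changes between -0.16 and 0.27 and adjusted p-values between 0.0975 and 0.922 with limma. In 3 of them, *dnj-4*, *dnj-19* and *dnj-28*, the groups did not overlap. Over all 29 genes HS lay wholly above NHS in 7 and wholly below in 6, where 30.6% and 25.5% of all genes did so. The lowest member of both families was *dnj-26*, with 41, 37 and 30 normalized counts in HS libraries, against 34, 25 and 30 in NHS libraries. It had the widest error (log2 fold change 0.27, SE 0.23, 95% interval -0.23 to 0.78, limma adjusted p = 0.35), so a change of that size was not detectable at its level, and with equal totals it was -0.07. The other members had standard errors of 0.20 or less.

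TRiC subunits were abundant, with NHS means from 10076 to 19714 normalized counts. *cct-5* changed most. It had 25572, 28239 and 24178 normalized counts in HS libraries, against 19391, 20552 and 19198 in NHS libraries. The groups were separate, with a log2 fold change of 0.40 (SE 0.06, limma adjusted p = 9.7e-04), which passed without any one library (adjusted p of at most 0.0062). With equal totals it was the only subunit above 0, at 0.04, and did not pass.

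Of the other subunits that rose, *cct-7* had 11333, 12094 and 11201 normalized counts in HS libraries, against 9673, 10729 and 9825 in NHS libraries, with a log2 fold change of 0.20 (limma adjusted p = 0.021). *cct-2* had 16786, 17844 and 15740 in HS libraries, against 14750, 14944 and 14389 in NHS libraries, with a log2 fold change of 0.19 (limma adjusted p = 0.021). *cct-1* had 21026, 21747 and 20166 in HS libraries, against 18774, 18891 and 18711 in NHS libraries, with a log2 fold change of 0.16 (limma adjusted p = 0.023). In all 3 the groups were separate, but the calls were fragile. The call of *cct-1* was lost without any one library other than HS replicate 3, that of *cct-2* without HS replicate 1 or 2 or NHS replicate 1 or 3, and that of *cct-7* without HS replicate 2 or NHS replicate 1 or 3, with adjusted p-values of up to 0.077.

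The other 4 subunits did not pass and their groups overlapped. *cct-3* had 15250, 15733 and 14468 normalized counts in HS libraries, against 13545, 14631 and 13822 in NHS libraries, with a log2 fold change of 0.11 (limma adjusted p = 0.11). *cct-4* had 15502, 16582 and 14833 in HS libraries, against 15095, 14540 and 14472 in NHS libraries, with a log2 fold change of 0.09 (limma adjusted p = 0.22). In both, the lowest HS library lay below the highest NHS library. *cct-8* had 11257, 11606 and 10621 in HS libraries, against 9992, 11063 and 10533 in NHS libraries, with a log2 fold change of 0.08 (limma adjusted p = 0.26). *cct-6* had 14826, 16111 and 14669 in HS libraries, against 14836, 14512 and 14146 in NHS libraries, with a log2 fold change of 0.07 (limma adjusted p = 0.33). The 95% intervals of these 4 ran from -0.05 to 0.24 at their widest, so rises above that range lie outside them on the authors' scale. With equal totals the 7 subunits other than *cct-5* fell, with log2 fold changes of -0.29 to -0.16 and limma adjusted p-values from 7.2e-04 to 0.033.

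**Figure D3:**
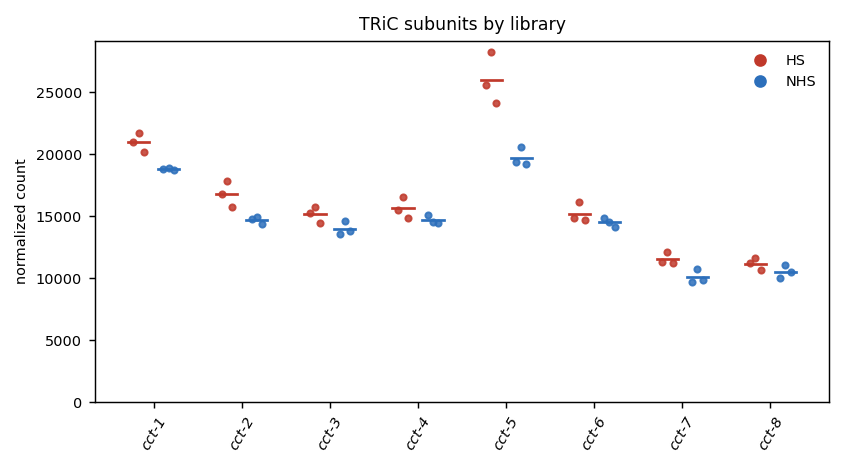
Normalized counts of the 8 TRiC subunits (linear axis from 0), with HS libraries to the left of NHS libraries and bars at the means. *cct-5* shows the widest gap, from 24178 to 28239 in HS against 19198 to 20552 in NHS, and *cct-3*, *cct-4*, *cct-6* and *cct-8* overlap between conditions.

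The subunits also shared one order of the HS libraries, which was read from these same values and is a description with no test. In NHS libraries *cct-4* and *cct-6* were highest in replicate 1 and the other subunits in replicate 2. HS replicate 2 was the highest and HS replicate 3 the lowest HS library in all 8 TRiC subunits and in 5 of 29 J-domain genes, *dnj-13* and *dnj-12* among them, where 20.1% of all genes had that order. With equal totals the order held in 0 of 8 and 2 of 29, where 11.2% of all genes had it. The library sums had the same order, with 43000000 in HS replicate 2 and 39400000 in HS replicate 3.

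Levels of different genes were compared only as normalized counts per kb of coding length. In NHS larvae, 6 TRiC subunits led the 37 members, *cct-5* at 12124 ± 450 and *cct-1* at 11410 ± 55.5 per kb, followed by *cct-2*, *cct-4*, *cct-6* and *cct-3*, whose ranges overlapped with their neighbours in that order. *dnj-13* was seventh at 8282 ± 245 per kb, overlapping with *cct-3*, above *cct-8* and *cct-7*, which overlapped with each other, and above every other J-domain gene. In HS larvae *dnj-13* was first, at 25851 ± 5614 per kb against 15988 ± 1269 for *cct-5* (SD, n = 3 each), and its lowest HS library, at 20851 per kb, exceeded the highest of *cct-5*, at 17367. *dnj-11* was 15th of the 37 members in NHS and 19th in HS.

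In both conditions the J-domain genes spanned a wide range, in NHS larvae from 27.3 ± 4.28 per kb for *dnj-26* to *dnj-13* at the top. *dnj-13* made up 38.4% ± 4.77 of the summed J-domain level per kb in HS libraries and 17.1% ± 0.362 in NHS libraries. The TRiC subunits, whose proteins form rings with one place each, were not equal in mRNA. The SD over the 8 subunits was 29.3% ± 1.19 of their mean per kb in HS libraries and 23.04% ± 0.907 in NHS libraries, and *cct-5* held 19.6% ± 0.504 of the summed TRiC level per kb in HS and 16.8% ± 0.261 in NHS (SD, n = 3 libraries each). These shares do not depend on the scaling between libraries.

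Summed over genes, TRiC had 132462 ± 7084 normalized counts in HS libraries and 117005 ± 2521 in NHS libraries, which was 0.319% ± 0.0062 of the library total in HS and 0.361% ± 0.0070 in NHS. The J-domain genes summed to 80458 ± 6146 normalized counts in HS libraries and 63456 ± 988 in NHS libraries, 0.194% ± 0.0090 of the total in HS and 0.196% ± 0.0021 in NHS. So the TRiC sum was higher in HS in normalized counts and lower as a share. The J-domain sum was higher in normalized counts and within the spread as a share. *dnj-13* alone had means of 25670 normalized counts in HS and 8224 in NHS, a wider gap than that between the J-domain sums. Without *dnj-13* the median log2 fold change of the J-domain genes was 0.03, so the higher sum was not a rise of the whole family.

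**Figure D4:**
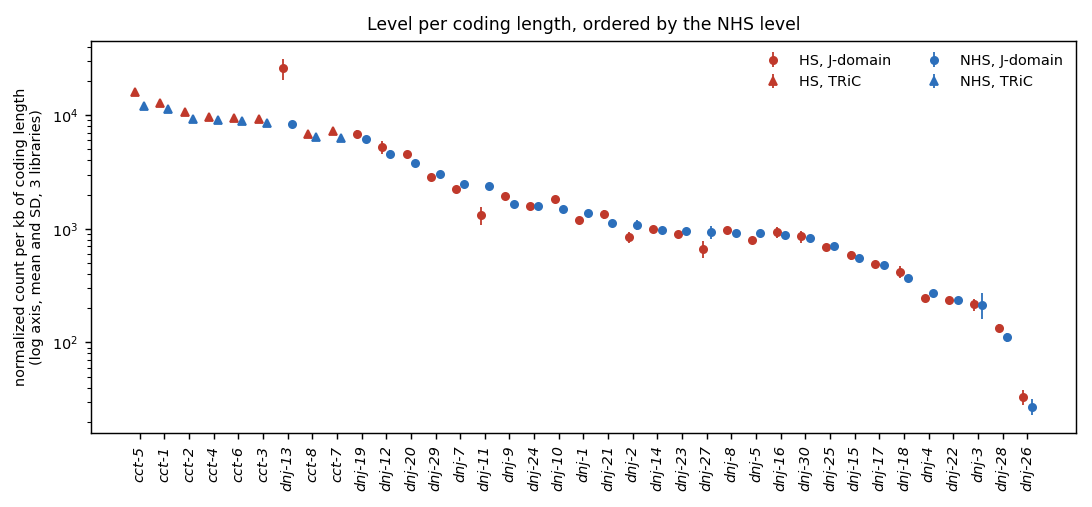
Level of each member in normalized counts per kb of coding length (log axis, mean and SD of 3 libraries), ordered by the NHS level, with HS to the left of NHS, circles for J-domain genes and triangles for TRiC subunits. *dnj-13* is seventh in NHS at 8282 and first in HS at 25851, while the order of the TRiC subunits changes little.

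Some features lie outside the naming rule. All 8 TRiC genes are alike in coding length, from 1587 to 1647 bases, and lie on chromosomes II, III, IV and V, with *cct-1*, *cct-2*, *cct-3* and *cct-4* on II and *cct-5* and *cct-6* on III. The J-domain genes run from 336 bases of coding length in *dnj-21* to 2745 in *dnj-5* and lie on all 6 chromosomes. *dnj-13* overlaps *dhgd-1* and *dnj-11* overlaps *lec-11* on the other strand, and the authors' library kit and read assignment kept strand. Whether reads of these neighbours entered the values of *dnj-13* and *dnj-11* was not tested.

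The partners of both families were read from lists chosen by function, against the 24.8% of all genes that rose and 20.2% that fell on the authors' scale, or 13.8% and 47.9% with equal totals. Of 10 HSP70 proteins 7 rose, 5 of them by more than 2-fold, *hsp-70* with a log2 fold change of 6.76 (SE 0.46, limma adjusted p = 6.1e-04), *F44E5.4* with 6.54, *F44E5.5* with 6.22, *hsp-110* with 2.93 and *hsp-4* with 2.23. *F44E5.4* and *F44E5.5* are near-identical neighbours whose reads may be shared. The 3 nucleotide exchange factors, which reopen HSP70 after the J-domain protein has closed it, all rose, *hsp-110*, *unc-23* by 1.90 (SE 0.25, limma adjusted p = 0.0033) and *bag-1* by 0.58 on the log2 scale. With equal totals 5 HSP70 proteins rose and 3 fell (*hsp-3*, *F11F1.1* and *stc-1*), the same 5 rose by more than 2-fold, and *bag-1* did not pass.

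Around TRiC the changes were smaller. Of 6 prefoldin genes, *pfd-4* rose by 0.22 and *pfd-5* by 0.18 on the log2 scale, and 4 did not pass, with a list median of 0.06. Of 12 actins and tubulins, which are TRiC clients, 5 rose and 2 fell, with a median of 0.09, where 24.8% of all genes rose and 20.2% fell. Those that rose were *tba-1*, *tba-2*, *act-1*, *act-3* and *act-4*, of which the actins are nearly identical and may share reads. Those that fell were *tbb-4*, with a log2 fold change of -0.95, and *tbg-1*, with -0.21. The mitochondrial chaperonin genes *hsp-60* and *Y22D7AL.10*, its HSP10 partner, rose by 0.41 and 0.25 on the log2 scale. None of these rises passed with equal totals, where 0 prefoldin genes rose and 5 fell, 0 actins and tubulins rose and 9 fell, beside the 47.9% of all genes that fell, and *hsp-60* was at 0.06 and *Y22D7AL.10* at -0.11.

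In *C. briggsae* 7 of the 37 members could be followed by name. *Cbr-dnj-13* had 23975, 22913 and 22194 normalized counts in HS libraries, against 5285, 4980 and 5524 in NHS libraries, 4.38-fold higher in HS. *Cbr-dnj-12* had 13089, 26729 and 22295 in HS libraries, against 6179, 6361 and 6303 in NHS libraries, 3.30-fold higher in HS. Every HS library of *Cbr-dnj-12* lay above 2 times its NHS mean, where *dnj-12* of *C. elegans* overlapped between groups. Both were named in the study because they rise with heat in at least 1 of the species, so their values are a description with no test. *Cbr-dnj-2*, named there only beside another gene and likewise not tested, had 1084, 829 and 878 in HS libraries, against 1417, 1347 and 1431 in NHS libraries.

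The remaining 4 were named without regard to their change. *Cbr-dnj-20* had 2926, 2540 and 2711 normalized counts in HS libraries, against 3124, 2785 and 2691 in NHS libraries, and its groups overlapped. Its log2 fold change was -0.07 in *C. briggsae* and 0.28 in *C. elegans*. The difference, *C. briggsae* minus *C. elegans*, was -0.35 (SE 0.10, limma adjusted p = 0.013 over 1182 gene pairs, of which 42% passed). Each species was normalized by itself, and the difference was -0.36 with TMM scaling and -0.38 with equal totals. With equal totals the log2 fold change was -0.46 in *C. briggsae* and -0.07 in *C. elegans*.

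*Cbr-dnj-22* had 438, 645 and 622 normalized counts in HS libraries, against 462, 461 and 465 in NHS libraries, with HS replicate 1 below all NHS libraries. Its log2 fold change was 0.28 in *C. briggsae* and -0.02 in *C. elegans*, and the difference of 0.29 (SE 0.18, limma adjusted p = 0.21) did not pass, but without AF16 HS replicate 1 it was 0.47 (adjusted p = 0.0021). *Cbr-cct-1* had 14102, 13227 and 14096 in HS libraries, against 13417, 13588 and 13420 in NHS libraries, and *Cbr-cct-4* had 9220, 8461 and 9053 in HS libraries, against 9239, 9289 and 8917 in NHS libraries. Both overlapped between groups. The differences between species were -0.12 (SE 0.06, limma adjusted p = 0.13) for *cct-1*, which passed with equal totals at -0.15 (adjusted p = 0.026), and -0.13 (SE 0.08, limma adjusted p = 0.20) for *cct-4*.

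**Figure D5:**
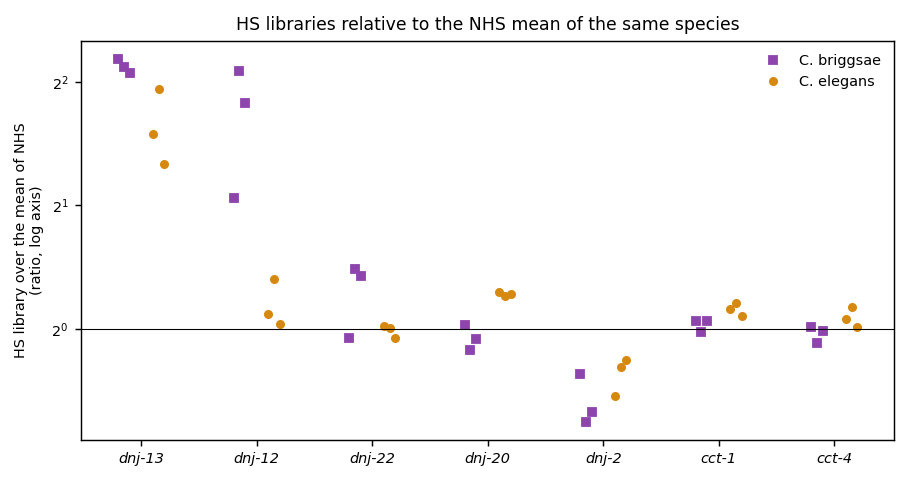
HS libraries divided by the mean of the NHS libraries of the same species (ratio, log axis) for the 7 members named in both species, with *C. briggsae* as squares to the left of *C. elegans* as circles. *dnj-13* is above 2 in every HS library of both species, and *dnj-12* is above 2 only in the libraries of *C. briggsae*.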

How the data were processed

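The authors made stranded total RNA libraries, assigned reads to the mRNA transcripts of each species with Salmon 0.13.1, and divided gene-level estimates by DESeq2 1.18.1 size factors of the 6 libraries of a species. The deposited values are a signal, normalized counts per gene, and not whole reads. Depth was estimated from the spacing of low values, of which 90.7 to 92.0% were whole multiples within 0.05 reads in N2, so count models were not run. No pair of libraries was identical, and 0 columns were left unused. The column headed AF15 in place of AF16 was taken as AF16 NHS replicate 3.

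Genes with a mean of at least 2 were tested as log2(normalized count + 1) with limma 3.58.1 (statmod 1.5.0, R 4.3.3), as a two-sided test with a variance trend and robust estimates, adjusting by Benjamini-Hochberg over every gene tested. Calls needed an adjusted p under 0.01 and more than 2-fold, or an adjusted p under 0.05 at any fold. The fits were tested on simulated data (16288 genes of N2, 200 changed), where 56% of 1.3-fold and 96% of 2-fold changes passed at any fold. Whether these rates hold at the spread of the real HS libraries, or where 45.1% of genes pass as in the real data, was not tested. Changes smaller than 1.3-fold, as in the TRiC subunits other than *cct-5*, were not simulated. Pairs of *C. briggsae* and *C. elegans* genes came from the names in the study's lists. Positions, strand and coding length came from the Ensembl annotation of WBcel235.

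The members and lists were chosen with earlier results of these data known. Values in every library are given for the TRiC subunits, *dnj-12*, *dnj-13*, *dnj-19*, every J-domain gene that passed and the 3 largest and 3 smallest changes, and for *dnj-14* and the *C. briggsae* pairs, chosen after their values were seen. The main fits compared group means and did not pair HS with NHS libraries. A block for replicate number was run as an alternative. Deviations of libraries of the same number from their group means correlated at 0.18, 0.16 and 0.29 over 14632 genes. The alternatives were a pseudocount of 0.5 or of 5, all genes kept or those with a mean of 10 or more, TMM scaling, equal totals, the replicate block, limma without trend and robust variances, and leaving out each library. Python 3.11.15 and pandas 2.3.3 were used. Promoter and protein sequences were not used here.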

Additional observations from a re-analysis of the deposited data

Results flagged for a closer look

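The change of *dnj-20*, the counterpart of human DNAJB11, differed between the species. The difference of log2 fold changes, *C. briggsae* minus *C. elegans*, was -0.35 (SE 0.10, limma adjusted p = 0.013). Of 1182 gene pairs, 42% passed. On the authors' scale the HS libraries lay above all NHS libraries in 3 of 3 in *C. elegans* and in 0 of 3 in *C. briggsae*. With equal totals the log2 fold changes were -0.46 in *C. briggsae* and -0.07 in *C. elegans*. Leaving out each of the 12 libraries in turn kept the difference between -0.41 and -0.29.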

How the results depend on the processing

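Scaling to equal totals changed the most. It reversed 15 of the 25 members given with a fold change, *cct-1* (-0.20), *cct-2* (-0.17), *cct-3* (-0.24), *cct-4* (-0.27), *cct-6* (-0.29), *cct-7* (-0.16), *cct-8* (-0.27), *dnj-9* (-0.13), *dnj-10* (-0.084), *dnj-12* (-0.17), *dnj-14* (-0.33), *dnj-19* (-0.23), *dnj-20* (-0.075), *dnj-21* (-0.092) and *dnj-26* (-0.071, all log2), and no other alternative run reversed any but *dnj-14*, which ran from -0.016 to 0.087 without each library in turn. It gave 1 J-domain gene down at 2-fold, 1 up and 19 down at any fold, 0 TRiC subunits up and 7 down (13.8% of all genes up and 47.9% down), medians of -0.32 and -0.22, and a species difference of -0.15 for *cct-1* (limma adjusted p = 0.026). Without trend and robust variances 3 J-domain genes fell and 1 TRiC subunit rose. The J-domain median minus that of all genes was 0.049 with a mean of at least 10 and -0.044 with no filter. For TRiC the same difference was 0.15 with a mean of at least 10 and 0.060 with no filter. By transcript length the spread of TRiC levels was 35.3% in HS and 29.7% in NHS.

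Without each library in turn, 0 to 1 J-domain genes fell at 2-fold (1, *dnj-11*, without HS replicate 3), 4 to 6 fell and 4 to 5 rose at any fold, and 1 to 4 TRiC subunits rose (2 without HS replicate 1, and 1 without HS replicate 2, NHS replicate 1 or NHS replicate 3). The J-domain median ran from 0.018 to 0.061, and from -0.013 to 0.024 relative to all genes. Without HS replicate 3, *dnj-7* and *dnj-12* passed. The species difference of *dnj-22* ran from 0.19 to 0.47. With the replicate block, 6 J-domain genes rose and 6 fell, with *dnj-12* and *dnj-7* added, and the pairing changed no other call. The planned promoter motif search was not run. Depth limits the lowest member, *dnj-26*.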
